A study of Mus musculus with 27 samples.

Results

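The 10 genes described here mark T cells and cytotoxic lymphocytes: Cd3e, Cd3g, Cd4, Cd8a, Trac, Nkg7, Gzma, Gzmb, Foxp3 and Areg. They were taken by gene name from the deposited expression tables, which hold 55852 entries for injured muscle and 55677 entries for the control comparison, and each of the 10 names matched 1 entry in both. In injured muscle, 7 of the 10 reached 1 TPM (a relative abundance of transcripts that takes gene length into account and sums to 1 fixed total per library) in at least 3 of 24 libraries, and Cd8a, Foxp3 and Areg stayed below 1 TPM in all 27 libraries.

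Muscle was injured with cardiotoxin (CTX), a snake venom peptide that lyses myofibres, in WT C57BL/6J mice and in mice labelled Gsdme KO, a line made to lack gasdermin E in all cells, and was collected 1, 4, 7 or 14 days later (D1 to D14), each genotype giving 3 libraries at each time. Another 3 libraries came from uninjured control muscle of WT mice, which the study describes as the contralateral muscle, so that control and WT D1 libraries may come from the same mice. All mice were male, no age was given, and the libraries were made from whole muscle, so that fewer cells of a type and less RNA per cell cannot be told apart. The KO of the sample titles is called a knockdown where the genotype is given, and the muscle is named as gastrocnemius in the study and as thigh muscle in part of the deposited description.

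T cells recognise antigen through a receptor whose alpha chain carries the constant region encoded by Trac and which signals through the CD3 chains, among them those encoded by Cd3e and Cd3g. CD4 and CD8 are co-receptors for MHC class II and class I, and in mice CD4 marks helper and regulatory T cells. Cytotoxic T cells and natural killer (NK) cells kill by releasing granules that hold granzymes, and regulatory T cells, which depend on the transcription factor FOXP3, are known in injured muscle as a source of amphiregulin, a growth factor that acts on myogenic cells.

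Read depth cannot be read from these values, since TPM keeps no read number. The genes at 1 TPM or more numbered from 11785 in a control library to 14704 in WT D4 replicate 1, and the share of TPM in the top 50 genes of a library ran from 25.4% to 61.4%. KO D4 replicate 2 stood apart from its group, with 51.1% in its top 50 genes and 1.57 TPM of Ptprc, which encodes the leukocyte antigen CD45, whereas KO D4 replicates 1 and 3 had 16.6 and 14.8 TPM of Ptprc. The targeted gene Gsdme was still measured in the KO libraries, from 0.95 to 2.17 TPM against 1.46 to 4.85 TPM in the injured WT libraries, and of the 4 days the genotypes overlapped on D14 only. The tables share the WT D1 libraries, for which no sequencing batch was given, so that on D1 a batch shared with the controls cannot be told apart from the genotype. The same limit holds for the WT step from D1 to D4 and for the comparison of that step between genotypes. Genotype differences averaged over the 4 days or compared between days include these libraries too.

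Since Gzma, Gzmb and Nkg7 followed one another across the libraries (below), the sequence ahead of their start sites is shown beside that of the receptor chain genes Cd3e and Cd3g. RefSeq promoter sequences on GRCm38 were found for 8 of the 10 members, and each window is the 150 bases before the most upstream annotated start, with no annotated exon in it. Capitals mark the letters TGTGGT, the core bound by RUNX factors, on either strand, and TGANTCA, the AP-1 site.
Gzma (chr13:113100982-113101131, minus strand): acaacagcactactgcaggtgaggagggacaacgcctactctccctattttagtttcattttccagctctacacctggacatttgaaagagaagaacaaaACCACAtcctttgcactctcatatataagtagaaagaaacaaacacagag
Gzmb (chr14:56262335-56262484, minus strand): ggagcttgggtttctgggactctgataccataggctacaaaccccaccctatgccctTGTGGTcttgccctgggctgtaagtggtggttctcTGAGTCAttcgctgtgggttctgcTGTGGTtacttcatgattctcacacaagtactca
Nkg7 (chr7:43436923-43437072, plus strand): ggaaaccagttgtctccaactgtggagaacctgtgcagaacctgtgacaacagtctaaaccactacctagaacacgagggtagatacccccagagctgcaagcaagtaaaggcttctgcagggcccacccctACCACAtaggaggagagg
Cd3e (chr9:45009664-45009813, minus strand): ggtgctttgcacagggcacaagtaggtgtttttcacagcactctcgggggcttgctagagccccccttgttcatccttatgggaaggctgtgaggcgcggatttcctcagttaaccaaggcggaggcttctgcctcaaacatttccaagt
Cd3g (chr9:44980432-44980581, minus strand): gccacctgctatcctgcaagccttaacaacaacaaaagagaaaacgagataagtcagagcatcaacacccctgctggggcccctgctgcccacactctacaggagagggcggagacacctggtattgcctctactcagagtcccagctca
The RUNX letters stood at position 101 of the Gzma window, at positions 58 and 117 of the Gzmb window and at position 133 of the Nkg7 window, counted from the upstream end, and the AP-1 letters stood at position 93 of the Gzmb window. Neither was in the Cd3e or Cd3g window. Of 32851 RefSeq promoters, 8.4% held TGTGGT and 4.24% held TGANTCA in a window of this length. The T-box letters GGTGTGA, held by 1.92% of promoters, and the ETS letters GGAAGT, held by 13.6%, were also searched on both strands and were in none of the 5 windows. No motifs overlapped each other, and these matches describe the letters only.

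In uninjured control muscle all 10 members were below 1 TPM. The highest control value was 0.63 TPM of Cd3e in replicate 1, and Gzmb was at 0.03 TPM in all 3 control libraries. Areg was listed at 0 in every control library.

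**Figure D1:**
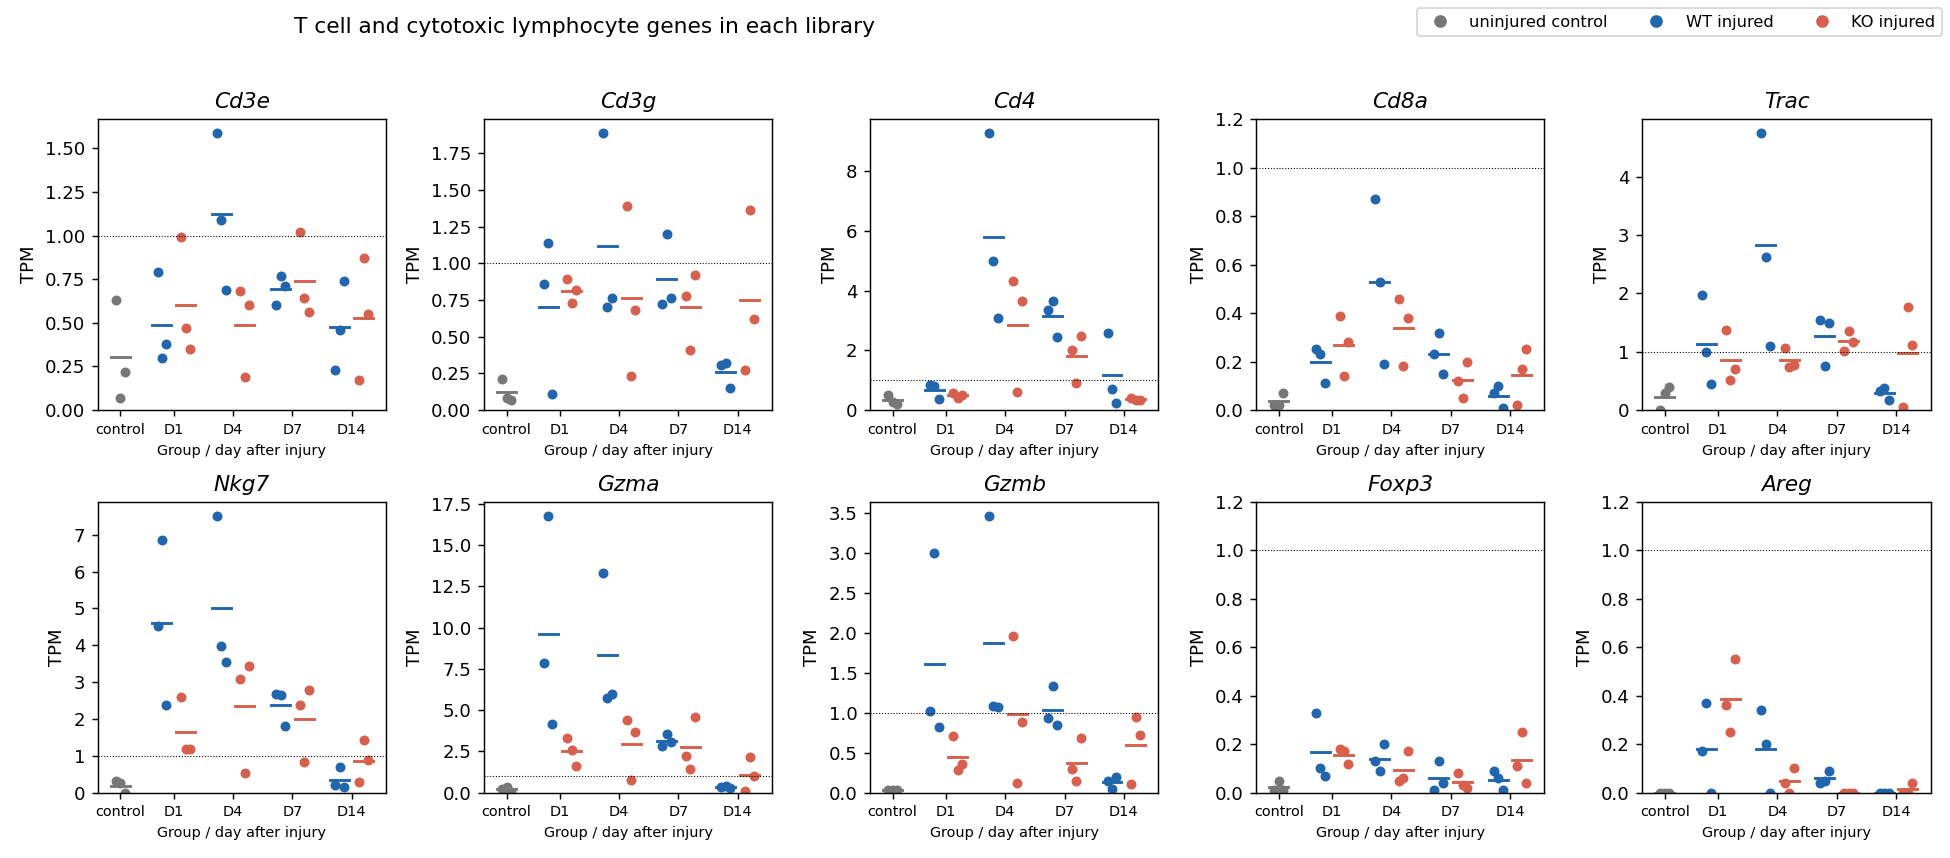
TPM of each of the 10 genes in every library (points, n = 3 per group) with group means (bars) against control or day after injury, with WT in blue, KO in red, control in grey and 1 TPM as a dotted line. Cd8a, Foxp3 and Areg lie below the dotted line in every library, Gzma reaches 16.8 TPM in WT on D1, and Cd4 peaks on D4 in WT.

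Of the receptor chains, Cd3e (ENSMUSG00000032093, chr9:44998740-45009627) was at 0.79, 0.3 and 0.38 TPM in WT D1, and at 1.59, 1.09 and 0.69 TPM in WT D4. Its WT libraries were at 0.6, 0.77 and 0.71 TPM on D7 and at 0.23, 0.46 and 0.74 TPM on D14. WT D4 had the highest mean, 1.12 ± 0.451 TPM (SD, n = 3), and the libraries of every pair of neighbours in the order of group means overlapped. In KO muscle Cd3e was at 0.99, 0.47 and 0.35 TPM on D1, 0.68, 0.19 and 0.6 TPM on D4, 1.02, 0.64 and 0.56 TPM on D7, and 0.17, 0.87 and 0.55 TPM on D14. Cd3e reached 1 TPM in 3 of the 24 libraries, the fewest that let a gene be tested.

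Trac (ENSMUSG00000076928, chr14:54220521-54224206), the alpha chain constant region, was at 1.97, 1 and 0.44 TPM in WT D1 and at 4.75, 2.62 and 1.1 TPM in WT D4. It was at 1.55, 0.75 and 1.49 TPM in WT D7 and at 0.32, 0.38 and 0.17 TPM in WT D14. WT D14 was thus below every other injured WT library, and the WT D4 mean was 2.82 ± 1.83 TPM (SD, n = 3), with replicate 1 the highest. In KO muscle Trac was at 1.37, 0.51 and 0.7 TPM on D1, 1.07, 0.74 and 0.77 TPM on D4, 1.01, 1.35 and 1.17 TPM on D7, and 0.06, 1.77 and 1.12 TPM on D14. On D14 the last 2 of these lay above all WT libraries and the first lay below them.

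Cd3g (ENSMUSG00000002033, chr9:44969572-44980431) had group means from 0.26 ± 0.0954 TPM (WT D14) to 1.12 ± 0.67 TPM (WT D4), with single libraries from 0.11 to 1.89 TPM. Only WT D14 separated from the group above it in the order of means, KO D7, and its 3 libraries were at 0.31, 0.32 and 0.15 TPM. Cd8a (ENSMUSG00000053977, chr6:71373427-71379173), the alpha chain of CD8, never passed 0.87 TPM, a value found in WT D4 replicate 1. It had its highest group means on D4, 0.53 ± 0.34 TPM in WT and 0.34 ± 0.144 TPM in KO, and its partner Cd8b1 was at most 0.79 TPM. Foxp3 (ENSMUSG00000039521, chrX:7573644-7595245) was at most 0.33 TPM, in WT D1 replicate 1, and its means in injured groups ran from 0.0433 TPM in KO D7 to 0.167 TPM in WT D1. Areg (ENSMUSG00000029378, chr5:91139599-91148432) was highest on D1, at 0.36, 0.25 and 0.55 TPM in KO and at 0.17, 0.37 and 0 TPM in WT. It was listed at 0 in all KO D7 and all WT D14 libraries. As the depth is unknown, no detection limit can be set for these 3 genes, and none of them entered the tests below.

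Cd4 (ENSMUSG00000023274, chr6:124864692-124888221) had its highest mean in WT D4, as the receptor chains did, and their courses were not tested against each other. It was at 0.85, 0.82 and 0.37 TPM in WT D1, rose to 9.28, 4.98 and 3.08 TPM in WT D4, and was at 3.34, 3.64 and 2.44 TPM in WT D7 and 2.59, 0.71 and 0.22 TPM in WT D14. In KO muscle it was at 0.57, 0.41 and 0.51 TPM on D1, 4.31, 0.62 and 3.66 TPM on D4, 2.01, 0.91 and 2.49 TPM on D7, and 0.4, 0.33 and 0.33 TPM on D14. Its WT D4 mean was 5.78 ± 3.18 TPM, above the 1.12 TPM of Cd3e and the 2.82 TPM of Trac in the same libraries.

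Of the granule genes, Gzma and Nkg7 were the most abundant members on D1 in both genotypes. Gzma (ENSMUSG00000023132, chr13:113093825-113100981), which encodes the tryptase granzyme A, was at 7.83, 16.8 and 4.14 TPM in WT D1 and at 3.28, 2.6 and 1.61 TPM in KO D1. It was at 13.3, 5.71 and 5.97 TPM in WT D4 and at 4.42, 0.76 and 3.7 TPM in KO D4. On both days every KO library was below every WT library. On D7 the WT libraries were at 2.84, 3.55 and 3.07 TPM and the KO libraries at 2.22, 1.44 and 4.57 TPM, and on D14 they were at 0.35, 0.42 and 0.31 TPM and at 0.07, 2.14 and 1.02 TPM. The genotypes overlapped on D7 and on D14, when KO replicates 2 and 3 were above all WT libraries.

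Nkg7 (ENSMUSG00000004612, chr7:43437073-43438249), a membrane protein of cytotoxic granules, was at 4.53, 6.86 and 2.39 TPM in WT D1 and at 2.61, 1.19 and 1.18 TPM in KO D1, and was at 7.52, 3.97 and 3.56 TPM in WT D4 and at 3.09, 0.54 and 3.44 TPM in KO D4. The genotypes overlapped on D1 and did not on D4. On D7 it was at 2.69, 2.65 and 1.8 TPM in WT and 2.39, 0.83 and 2.79 TPM in KO, and on D14 at 0.21, 0.7 and 0.14 TPM in WT and 0.29, 1.42 and 0.88 TPM in KO. Gzmb (ENSMUSG00000015437, chr14:56258838-56262260), which encodes granzyme B, the granzyme that activates caspases, was lower than Gzma in every WT library. It was at 1.02, 3 and 0.82 TPM in WT D1 against 0.71, 0.28 and 0.36 TPM in KO D1, and at 0.94, 1.33 and 0.85 TPM in WT D7 against 0.3, 0.15 and 0.68 TPM in KO D7, with no overlap on either day. On D4 it was at 3.47, 1.09 and 1.07 TPM in WT and 1.96, 0.12 and 0.89 TPM in KO, and on D14 at 0.15, 0.04 and 0.2 TPM in WT and 0.11, 0.95 and 0.72 TPM in KO. The genotypes overlapped on both of these days.

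In the order of the group means, WT D4 or WT D1 stood first for each of the 3 granule genes, and most neighbours overlapped. Gzma had WT D1 (9.58 ± 6.5 TPM) and WT D4 (8.33 ± 4.32 TPM) first, and these overlapped each other while WT D4 lay wholly above WT D7 (3.15 ± 0.362 TPM), the next group. Nkg7 had WT D4 (5.02 ± 2.18 TPM), WT D1 (4.59 ± 2.24 TPM) and WT D7 (2.38 ± 0.503 TPM), and no neighbours in its order were apart. Gzmb had WT D4 (1.88 ± 1.38 TPM) and WT D1 (1.61 ± 1.21 TPM), and only WT D14 and control were apart. Of the other tested members, KO D4 lay above WT D14 for Trac and KO D1 above KO D14 for Cd4.

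To ask what injury did within the first day, WT D1 was set against control muscle in the table that holds both. Gzma rose by 2.95 on the log2(TPM + 1) scale (SE 0.409, adjusted p = 0.00173) and Nkg7 by 2.16 (SE 0.312, adjusted p = 0.0019), with every D1 library above every control library. The fit was unpaired, as no label ties control to injured libraries by mouse, and with the replicate number as a block both remained called (adjusted p = 0.00017 and 0.00034). These and all adjusted p-values below are from limma with Benjamini-Hochberg adjustment over all genes tested, and a gene is called where that value is under 0.05. The 2 were the only members tested here, and since they reached 1 TPM in D1 libraries only, they had to differ to be tested. Of the 13041 genes tested, 55.4% were called higher, and 9.24% of all calls were lower, a share that was 45.7% under median-of-ratios scaling, 51.2% under quantile normalization and 28% with the top 50 genes removed. With no filter, Gzmb was also called (1.25, adjusted p = 0.0318), as was Cd8a (0.21, adjusted p = 0.0439).

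Around them, 3 of 4 tested genes of the NK cell and cytotoxic effector list rose on D1 (Ccl5, a chemokine, by 3.48, and the NK receptors Klrd1 by 2.15 and Klrk1 by 1.72), as did 3 of 6 tested genes of the T cell receptor list (Thy1 by 1.39, Trbc1 by 1.24 and Cd2 by 0.81), a share no higher than the 55.4% of all genes, and with a list median of 0.51 below the 0.66 of all genes. All 11 macrophage and monocyte genes and all 6 tested neutrophil genes rose as well, with list medians of 3.32 and 3.5. Ptprc rose by 3.37. The NK list had 3 higher calls under each of 3 other scalings, whereas the T cell receptor list had 1 under quantile normalization and 1 under median-of-ratios scaling. A listed gene below 1 TPM in every control library could be tested only if every D1 library held it at 1 TPM or more. The counts of these lists therefore favour genes that rose and do not add to the result of the members.

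Within WT, D4 was compared with D1, and a batch that the D1 libraries share with the controls cannot be told apart from this step. Cd4 rose by 1.92 (SE 0.413, adjusted p = 0.00286), with all D4 libraries above all D1 libraries, and was the 1 member of 7 called, beside 14.6% of all genes called higher. The median of all genes was 0.17, and 26.5% of all calls were lower, against 44.9%, 48.9% and 50.4% under median-of-ratios scaling, quantile normalization and with the top 50 genes removed. Trac had a difference of 0.78 (adjusted p = 0.122) and Cd3e of 0.5 (adjusted p = 0.122), while Gzma, Nkg7 and Gzmb differed by -0.09, 0.13 and 0.13. Of the T cell receptor list, Thy1 (1.42), which fibroblasts also express, and the kinase gene Zap70 (1.21) rose, of the naive T cell list Tcf7 rose (1.16) and Satb1 fell (-1.01), and of the NK list 0 of 9 tested genes passed the test or had an unadjusted p under 0.05. Of the EGF receptor ligands and receptors, the receptor genes Erbb3 and Erbb2 rose by 2.47 and 1.3, and the ligand gene Egf fell (-1.29). Egfr was not called (0.8, limma adjusted p = 0.086). Ptprc differed by 0.23, and the macrophage list held 1 gene that rose (Csf1r, 1.52) and 1 that fell (Ly6c2, -3.06).

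In KO, Cd4 also rose from D1 to D4, by 1.2 (SE 0.413, adjusted p = 0.0486), as 1 of 7 members, beside 7.18% of all genes called higher. Of all calls in this step 63% were lower, against 51.8% under median-of-ratios scaling, 53.7% under quantile normalization and 64.1% with the top 50 genes removed. The call of Cd4 was lost with no filter (adjusted p = 0.1) and on leaving out any KO D1 library or KO D4 replicate 1 or 3 (limma adjusted p from 0.0884 to 0.147), and without KO D4 replicate 2 the rise was 1.73 (adjusted p = 0.00441). Over the same days 5 of 7 neutrophil genes and 6 of 11 macrophage genes fell in KO, and Ptprc had a difference of -1.62. No step differed between the genotypes for any member: 0 of 7 members and 0% of all genes were called for D4 minus D1, for D7 minus D4 and for D14 minus D7, and 0 members had an unadjusted p under 0.05.

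From D4 to D7, 0 of 7 members were called in WT, where 12.3% of all genes were called (75.4% of them lower, and 46.7%, 46.4% and 23.7% under the 3 other scalings), and 1 member (Gzma) had an unadjusted p under 0.05. In KO 0 of 7 were called beside 0% of all genes, and 0 had an unadjusted p under 0.05. From D7 to D14 Gzma fell in WT by 1.61 (SE 0.475, adjusted p = 0.0196) and Nkg7 fell by 1.34 (SE 0.404, adjusted p = 0.0215), as 2 of 7 members, beside 30.9% of all genes called lower, and Ptprc fell by 1.95. For both genes every WT D14 library was below every WT D7 library. Leaving out WT D7 replicate 1, WT D7 replicate 2 or WT D14 replicate 3 ended both calls, and leaving out WT D14 replicate 1 ended that of Nkg7 (adjusted p = 0.0555) while Cd4 was then called (-1.51, adjusted p = 0.0251). Cd4, Trac and Gzmb had differences of -1.07, -0.79 and -0.85 with adjusted p from 0.0538 to 0.0815. In KO 0 of 7 members were called from D7 to D14, beside 0.56% of all genes, and 1 (Cd4) had an unadjusted p under 0.05.

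Of the companion lists in the WT step from D7 to D14, the NK list had 5 of 9 tested genes that fell, led by Ccl5 (-2.67), Klrd1 (-1.32) and Xcl1 (-1.17), and the T cell receptor list had 5 of 11, led by Thy1 (-1.79), Lck (-1.17) and Zap70 (-1.03). Chemokines that draw activated T and NK cells fell too (Cxcl10 by 2.52, Cxcl16 by 2.28 and Cxcl9 by 1.7), while Il12a rose by 0.95. Of the EGF receptor ligands and receptors, Hbegf, Erbb2 and Egfr fell by 1.18, 1.04 and 0.88. Lrrc32 and Tnfrsf18 of the regulatory T cell list fell by 0.82 and 0.67. The median of all genes was itself -0.45 in this step, and 97.1% of all calls were lower. Under median-of-ratios scaling, quantile normalization and with the top 50 genes removed, 69.9%, 58.2% and 84.9% were lower. Under quantile normalization, the NK and T cell receptor lists had 1 lower call each.

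Genotypes were then compared on each day. On D1, 0 of 7 members were called, beside 0.00636% of all genes (1 of 15718). The lowest unadjusted p-values were those of the 3 granule genes: the KO minus WT difference was -1.44 for Gzma (SE 0.475), -1.03 for Nkg7 (SE 0.404) and -0.77 for Gzmb (SE 0.355), and the limma adjusted p was 0.873 for each. Of the 7 members, 2 (Gzma and Gzmb) had all KO libraries below all WT libraries, as did 3.38% of all genes, and their exact two-sided permutation p of 0.1 is the smallest that 3 against 3 libraries can give. The other 4 members differed by -0.16 (Trac), -0.15 (Cd4), 0.1 (Cd3e) and 0.14 (Cd3g). Without WT D1 replicate 2, which held the highest values, the difference of Gzmb was -0.41 and that of Gzma was -0.98.

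**Figure D2:**
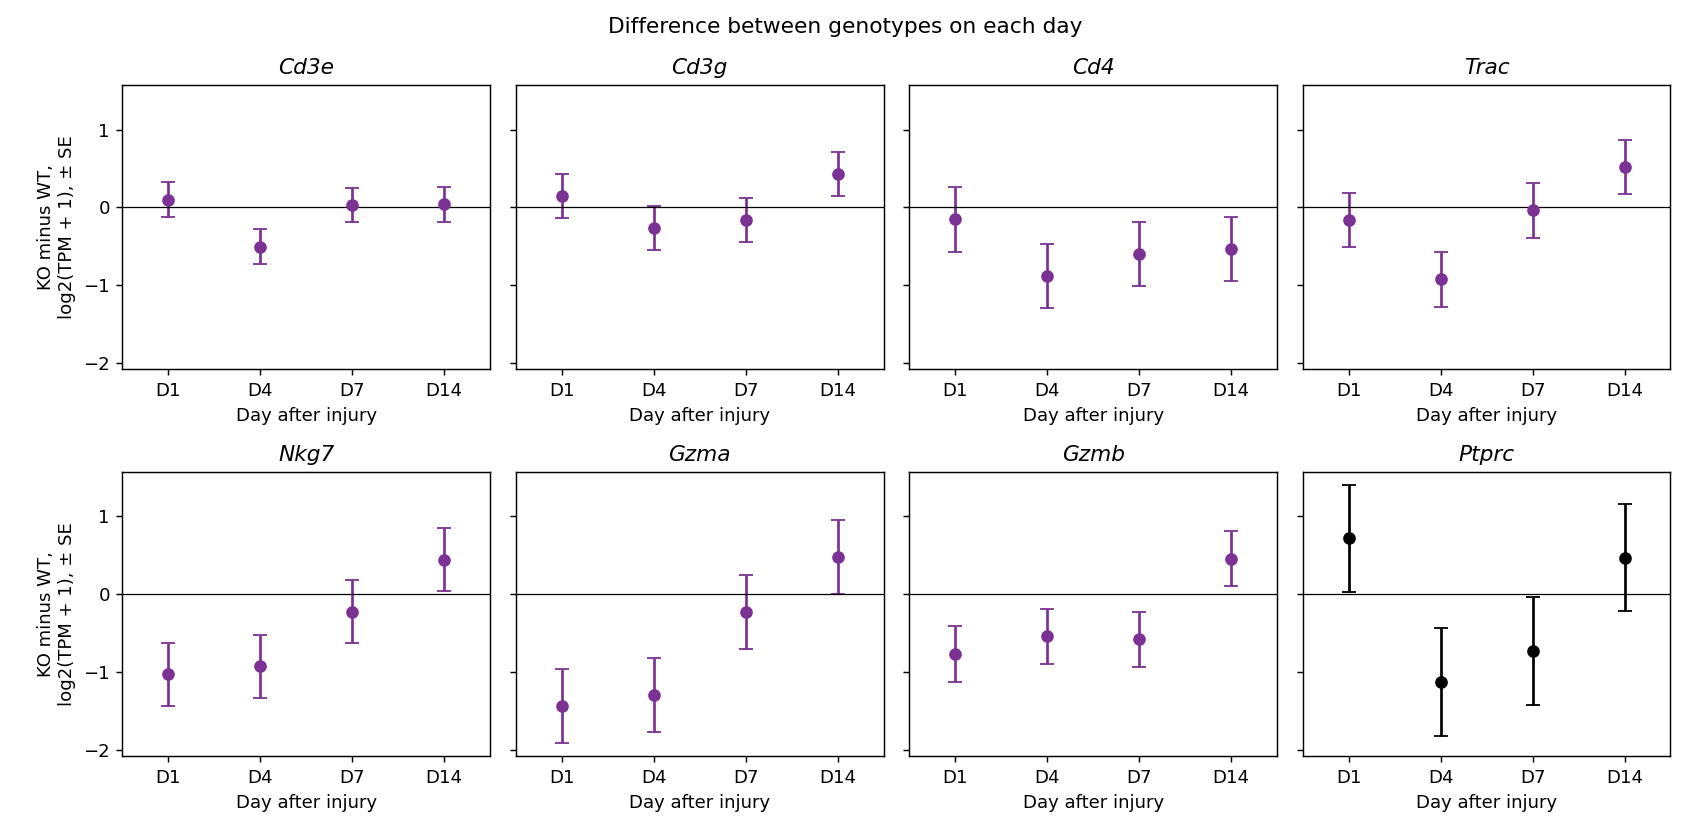
KO minus WT difference on the log2(TPM + 1) scale with its SE from limma, on each day after injury, for the 7 tested genes and for Ptprc (black). On D1 the points of Gzma (-1.44), Nkg7 (-1.03) and Gzmb (-0.77) lie below 0 while Ptprc lies above it (0.72), and no point was called.

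The NK cell and cytotoxic effector list lay on the same side on D1. None of its 9 tested genes had a difference above 0, under TPM or under any of the 3 other scalings, with a median of -0.49 against 0.09 for all genes. None of these 9 was called or had an unadjusted p under 0.05, and the lowest were Klrb1c, the NK1.1 antigen (-0.6, adjusted p = 0.873), and Il2rb, a receptor chain for interleukins 2 and 15 (-0.62, adjusted p = 0.873). Prf1, which encodes perforin and did not enter the tests, was at 0.46 to 2.13 TPM in WT and 0.24 to 0.49 TPM in KO. The T cell receptor list had 4 of 11 genes above 0 and a median of -0.05, with Cd28 (-0.61) and Trbc1 (-0.55) the lowest in p. The regulatory T cell list had 3 of 6 above 0, 0 called and 0 with an unadjusted p under 0.05.

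The neutrophil genes and most macrophage genes lay on the other side on D1. All 7 tested neutrophil genes were above 0, with a median of 1.42, 0 called and 3 with an unadjusted p under 0.05, led by Mmp8 (1.11) and Cxcr2 (1.42). Their list summed to 58.9 to 622 TPM in WT and 296 to 3476 TPM in KO. Of the 11 macrophage genes 10 were above 0, with 0 called and 1 with an unadjusted p under 0.05, and their sum ran from 788 to 3666 TPM in WT and from 2837 to 4086 TPM in KO. The part of these cells in the differences of the granule genes was not tested.

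The level of each member was therefore also expressed relative to Ptprc in the same library, as the difference of their log2(TPM + 1) values. On D1 Gzma lay between -1.06 and -0.454 in WT and between -4.39 and -1.92 in KO, a KO minus WT difference of -2.16. Nkg7 differed by -1.75 and Gzmb by -1.48, and the genotypes did not overlap for any of these 3 (exact two-sided permutation p = 0.1 for each, the smallest possible). The receptor chains and Cd4 differed by -0.57 to -0.88 with overlap (exact permutation p from 0.4 to 0.6). Ptprc itself was higher in KO on D1 by 0.72, with overlap, and this enters every relative value of that day. The levels of Cd3e, Cd3g, Cd4 and Trac themselves differed by 0.1, 0.14, -0.15 and -0.16, and that of Gzma by -1.44. In WT D1 the library with more Ptprc had more Gzma: Ptprc was at 6.04, 17.4 and 35 TPM where Gzma was at 4.14, 7.83 and 16.8 TPM. In KO D1, Ptprc was at 12.6 and 26.9 TPM where Gzma was at 2.6 and 3.28 TPM. The KO D1 library with the most Ptprc, 53.5 TPM, had the least Gzma, 1.61 TPM. Without that library, KO D1 replicate 3, the relative difference of Gzma was -1.47, that of Nkg7 -1.13 and that of Gzmb -0.95. On D7 Nkg7 (0.5) and Cd3g (0.57) lay higher in KO relative to Ptprc without overlap, and on D14 Cd4 lay lower (-1), each with an exact permutation p of 0.1. On D7 the levels of Nkg7 and Cd3g themselves differed by -0.23 and -0.16, and that of Ptprc by -0.73, with every KO library below every WT library. Averaged over the 4 days the exact permutation p ran from 0.186 (Cd4) to 0.966 (Trac) over 160000 assignments. In all, 35 such relative differences were computed, and these p-values were not adjusted. The share of all genes that separate the genotypes relative to Ptprc was not computed, so these separations are not read as a result about the members.

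**Figure D3:**
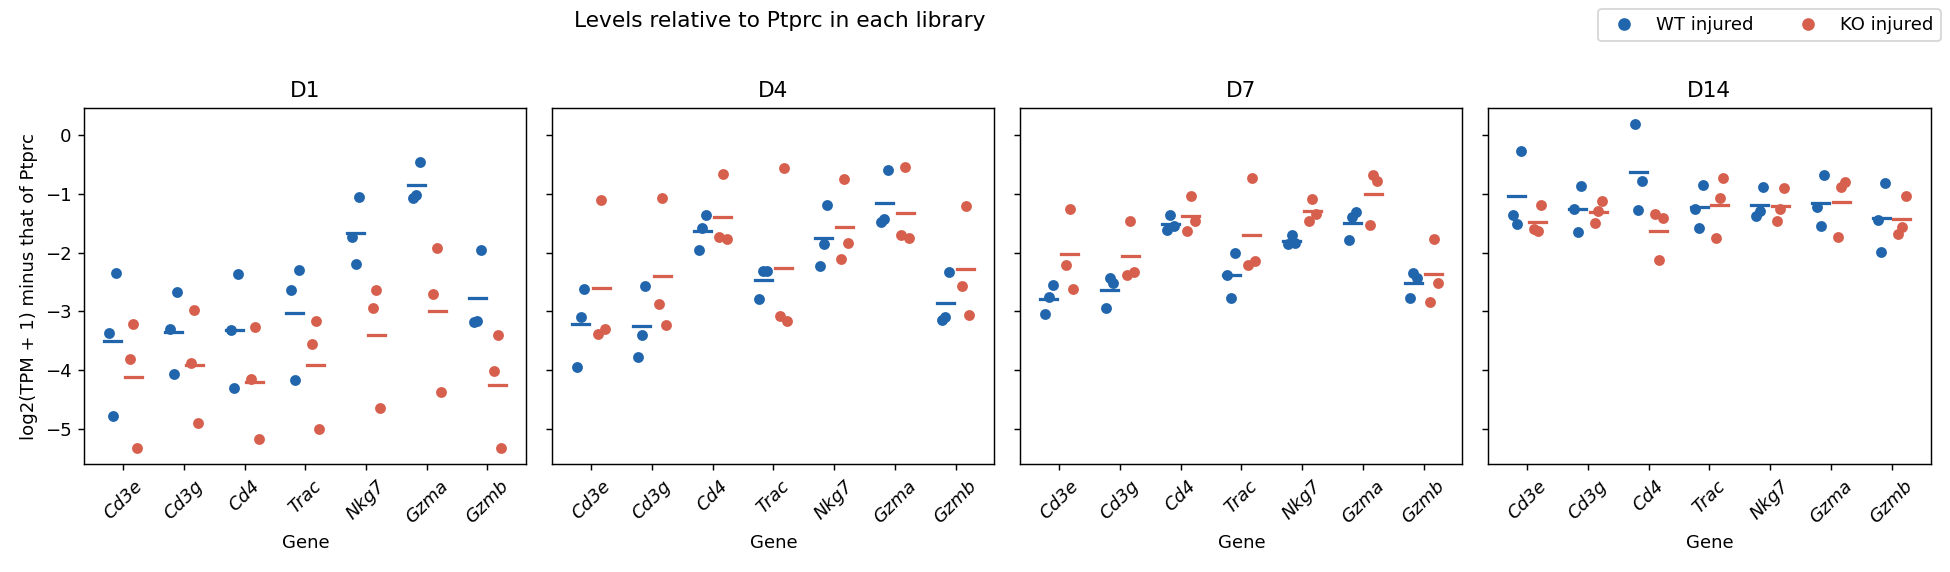
log2(TPM + 1) of each of the 7 tested genes minus that of Ptprc, in every library (points, n = 3 per group) with group means (bars), on D1, D4, D7 and D14, with WT in blue and KO in red. On D1 Gzma lies between -1.06 and -0.454 in WT and between -4.39 and -1.92 in KO, and on D14 the genotypes overlap for every gene but Cd4.

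On D4 all 7 members had a lower mean in KO on the log2 scale, and 0 were called, beside 0% of all genes. An unadjusted p under 0.05 was found for 5: Gzma (-1.3), Nkg7 (-0.93), Trac (-0.93), Cd4 (-0.88) and Cd3e (-0.51), with limma adjusted p of 0.212 to 0.217. Such an unadjusted p was common on D4, with 3568 of all 15718 genes tested below 0.05, against 845 on D1. The KO libraries were all below the WT libraries for 4 of 7 (Cd3e, Trac, Nkg7 and Gzma), beside 11.2% of all genes, each with an exact permutation p of 0.1. Cd3e passed the filter only through 2 WT D4 libraries and 1 KO D7 library. Its D4 difference and separation are therefore not independent of the filter and lend no support. Leaving out KO D4 replicate 2, an alternative chosen after the data were seen, cannot undo such a separation and says nothing about its stability, and the share of all genes was then 12.2%. Without that library the differences were -0.79 for Gzma, -0.44 for Nkg7, -0.34 for Cd4, -0.35 for Cd3e and -0.88 for Trac. The median of all genes was -0.28 on D4, and those 5 genes were below 0 under the 3 other scalings as well. With library quality weights, the difference of Gzma was -0.53.

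Unlike on D1, the macrophage and neutrophil lists lay on the same side as the members on D4, while 4 of 6 mast cell and basophil genes were above 0. None of 11 macrophage genes and none of 7 neutrophil genes was above 0, Ptprc had a difference of -1.13, and all 8 mature myofibre genes were above 0, with a median of 0.71. The macrophage list summed to 2356 to 4730 TPM in WT and 391 to 3320 TPM in KO, and the myofibre list to 39480 to 82130 TPM and 62390 to 124700 TPM. None of these genes was called, and 3 macrophage, 0 neutrophil and 4 myofibre genes had an unadjusted p under 0.05. Of the NK list, 1 of 9 was above 0, with 0 called and 2 with an unadjusted p under 0.05 (Ctsw, -1.13, and Klrb1c, -0.67). The regulatory T cell list had 1 of 6 above 0, with Tnfrsf9 (-0.82) the lowest in p, and the list of EGF receptor ligands and receptors had 1 of 5, with Erbb3 (-0.94) and Erbb2 (-0.76), 0 called in either. B cell genes lay on that side too, with 1 of 8 above 0, 0 called and 3 with an unadjusted p under 0.05, led by Fcrla (-0.89, limma adjusted p = 0.184) and Cd22 (-1.84, limma adjusted p = 0.201). Relative to Ptprc, Gzma differed by -0.17 on D4 (exact permutation p = 0.6) and Nkg7 by 0.2 (exact permutation p = 0.6). The part of the other leukocytes, B cells included, and of the myofibre content in the D4 differences was not tested.

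On D7, 0 of 7 members were called beside 0% of all genes, and 0 had an unadjusted p under 0.05. Gzmb was the 1 of 7 whose KO libraries were all below the WT libraries (exact permutation p = 0.1), beside 14.6% of all genes, with a difference of -0.58. On D14, 0 of 7 were called beside 0% of all genes, 0 had an unadjusted p under 0.05, and no member separated the genotypes. Gzma, Nkg7, Gzmb, Trac and Cd3g had differences between 0.43 and 0.52, and for all 5 the highest D14 library was KO replicate 2 and the next KO replicate 3, while KO replicate 1 was within or below the WT range. The T cell receptor list had 9 of 11 genes above 0 and the NK list 7 of 9, with medians of 0.09 and 0.12 against 0.08 for all genes, 0 called and 0 with an unadjusted p under 0.05. Ccl5 had the largest D14 difference of the NK list (0.85), at 1.08 to 4.74 TPM in WT and 1.33 to 18.3 TPM in KO, with overlap. In the same list Klrb1c and Ctsw differed by 0.04 and 0.005, and Ncr1 and Xcl1 by -0.06 and -0.07. Ifng, which encodes interferon gamma, was not among the tested genes of the lists. It was listed at 0 in all WT libraries and reached 1.33 TPM in KO, and no conclusion rests on these 2 genes.

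Averaged over the 4 days, 0 of 7 members were called beside 0.00636% of all genes, and 3 had an unadjusted p under 0.05: Gzma (-0.62, SE 0.237), Cd4 (-0.54, SE 0.207) and Nkg7 (-0.44, SE 0.202), each with a limma adjusted p of 0.861. Exact permutation of genotype within days, for 7 members over 160000 assignments, gave p = 0.0466 for Gzma, 0.00896 for Cd4 and 0.0819 for Nkg7, and Benjamini-Hochberg adjustment was not applied to these. The mean of Cd4 was lower in KO on all 4 days. Without KO D4 replicate 2 the averaged differences were -0.5 for Gzma, -0.41 for Cd4 and -0.31 for Nkg7. The F test of whether the genotype difference varied between days called 0 of 7 members and 0% of all genes, and 1 member, Gzma, had an unadjusted p under 0.05 (0.03, limma adjusted p = 0.527). Gzma and Gzmb also stand in the study's own list of genes that differ between genotypes, which was drawn from these libraries, so that their choice is not independent of these values.

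**Figure D4:**
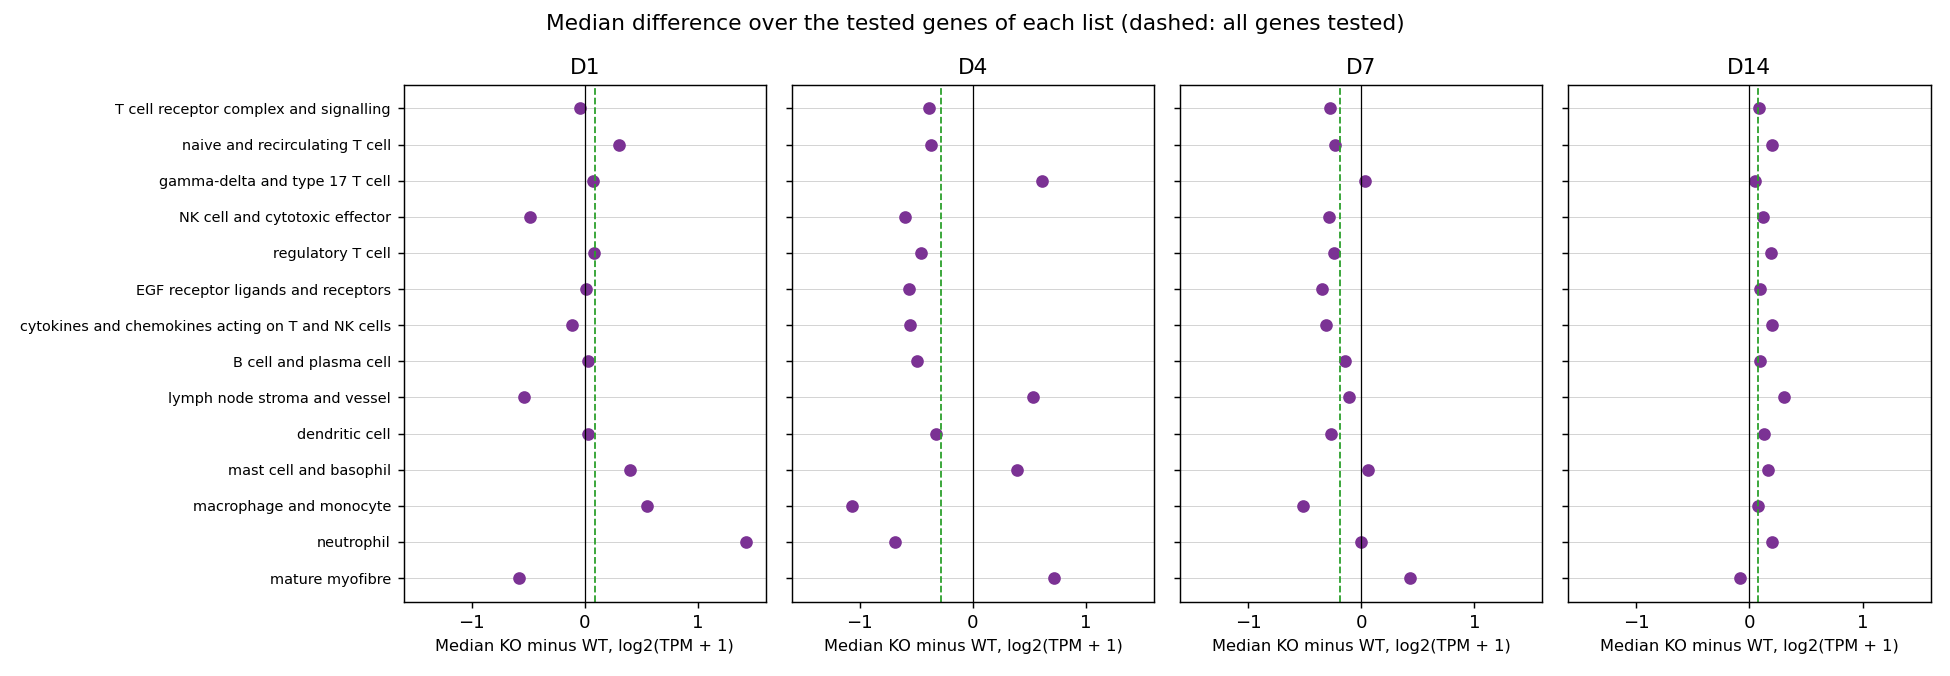
Median KO minus WT difference on the log2(TPM + 1) scale over the tested genes of each companion list on D1, D4, D7 and D14, with 0 as a solid line and the median of all genes tested as a dashed line. On D1 the NK cell and cytotoxic effector list is at -0.49 while the neutrophil list is at 1.42, and on D4 both are below 0.

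Markers of B cells and of lymph node tissue, which can be dissected along with muscle, were checked in the same libraries. The B cell genes Ms4a1 and Cd79a were at most 0.21 and 1.06 TPM, and the B cell list summed to 20.4 to 34.8 TPM in WT D1 and 16.5 to 37.9 TPM in KO D1. On D4 it summed to 71.5 to 82.5 TPM in WT and 34.6 to 65.7 TPM in KO, without overlap. In the WT step from D1 to D4, in which Cd4 rose, 4 of 8 tested B cell genes rose as well, led by Cd22 (2.48), Cd79b (1.19) and Ighm (1.12). Of lymph node genes, Cr2 was at most 0.11 TPM, Fcer2a 0.38 TPM, and Chst4 and Glycam1, genes of high endothelial venules, were listed at 0 in all 6 D1 libraries. Ccl21a, a chemokine of lymphatic vessels, was the abundant gene of that list and ran from 0.86 to 71 TPM over the injured libraries. On D1, when the granule genes had lower means in KO, Ccl21a was at 19.2 to 29.8 TPM in WT and 0.86 to 17.7 TPM in KO, a difference of -1.84 (limma adjusted p = 0.873). The chemokine genes Cxcl13 and Ccl19 of the same list were also tested. They differed by -0.54 and -0.12 on D1, and neither was called. The part of B cells and lymphatic tissue in the values of the members was not tested.

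The genes most like each tested member over the 24 injured libraries were listed next, by Pearson's r of log2(TPM + 1), as a description, since points share group means and library composition. Gzma and Nkg7 were each other's nearest gene (r = 0.969, and 0.907 for deviations from the group means), and both had Il2rb (0.934 and 0.933) and the interferon factor gene Irf7 (0.93 and 0.933) next. Gzmb had Il2rb (0.896), the interferon-induced GTPase gene Irgm1 (0.886) and the NK receptor gene Klrk1 (0.885). Genes of other leukocytes followed them too: within groups, Nkg7 had an r of deviations of 0.892 with the macrophage gene Csf1r and of 0.842 with Ptprc, beside 0.858 with Il2rb and 0.87 with Klrk1. For Gzma these were 0.771, 0.733, 0.902 and 0.905.

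Trac and Cd3e were less close to any gene. The nearest gene to Cd3e was Trac, at 0.764, followed by Slc38a9 and P2ry14 at 0.744 and 0.729, and the nearest to Trac were Sipa1l1 (0.807) and the interferon-induced genes Igtp (0.797) and Gbp2 (0.794). Cd3g, listed with Acly, Wac and Igtp at 0.844 to 0.866, had a correlation of 0.6 with Cd3e and of 0.775 with Gzmb. Cd4 was nearest to Sertad4 (0.936), Ncam1 (0.931), a cell adhesion molecule of myogenic cells and nerve, and Fbn2 (0.931), a matrix fibrillin. Its correlation was 0.511 with Cd3e, 0.56 with Trac and 0.691 with Csf1r, the receptor gene of macrophages.

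Cd4 and Ncam1 also deviated together within groups (r of deviations 0.941), where Cd4 and Cd3e had 0.268. The 2 values are not alike, as Ncam1 was picked by its r among all genes tested and Cd3e was below 1 TPM in most libraries. Ncam1 was at 133, 65.3 and 59.7 TPM in WT D4 and at 73.7, 4.82 and 59.5 TPM in KO D4, so that KO replicate 2 was low for both genes. In WT D14 it was at 15.2, 2.01 and 1.71 TPM, where Cd4 was at 2.59, 0.71 and 0.22 TPM. The library with the most Cd4 in each of these groups was the one with the most Ncam1. It was also so in WT D1 and KO D7, but not in KO D1, WT D7 or KO D14.

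**Figure D5:**
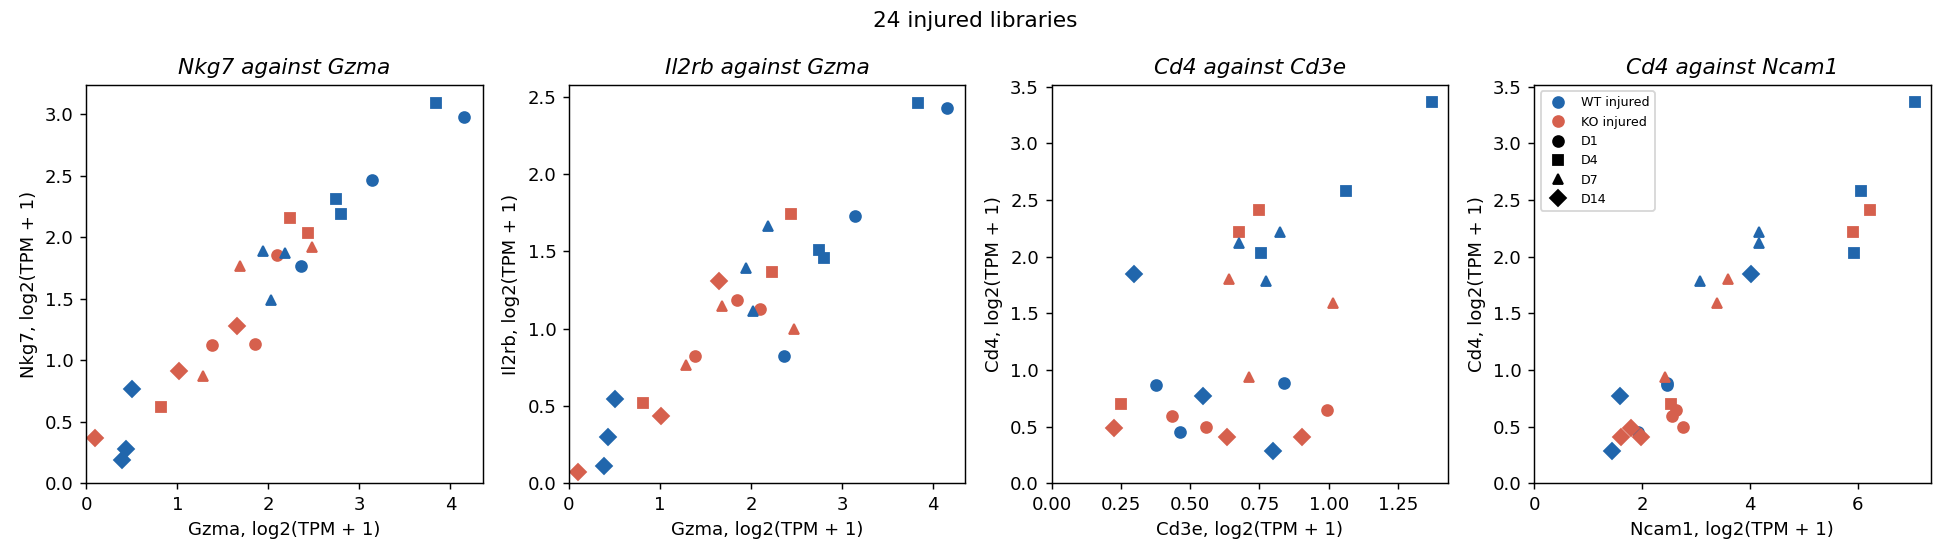
log2(TPM + 1) of pairs of genes in the 24 injured libraries (points, shape for the day and colour for the genotype): Nkg7 and Il2rb against Gzma, and Cd4 against Cd3e and Ncam1. Nkg7 follows Gzma along 1 line (r = 0.969), and Cd4 follows Ncam1 (r = 0.931) more closely than Cd3e (r = 0.511). Ncam1 was picked by its r among all genes tested, and Cd3e is a listed member below 1 TPM in most libraries.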

How the data were processed

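The deposited TPM values of 27 libraries were analysed as given. Per the labels, a SMARTER mRNA kit was used and reads were aligned to mm10. The aligner, the counting tool and strand use are not given in the sources used here. The members and companion lists were chosen with earlier results of these data known. Values were tested as log2(TPM + 1), which understates changes of low genes, keeping genes that 3 or more libraries held at 1 TPM or above (15718 and 13041 genes). limma 3.58.1 (R 4.3.3) was fitted on 8 group means with contrasts and a variance trend, checked on simulated data, and single values were permuted exactly (Python 3.11.15). The control comparison stayed within its own table. All members were named. Of each companion list, genes called at an adjusted p under 0.05 were named, at most 3 per direction by size, or, with none called, at most 2 of lowest p, and ranges of some defining markers were added after their values were seen. For each tested member the 3 most correlated genes were named. Gene positions are from GENCODE on GRCm38. The deposited group means were not used, and 4 listed symbols had no entry. The labels call the 3 libraries of a group biological triplicates. Alternatives were other pseudocounts, filters, scalings, weights, a replicate block and libraries left out.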

Additional observations from a re-analysis of the deposited data

How the results depend on the processing

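Of 24 member differences with an unadjusted p under 0.05, 0 changed sign in 403 alternatives, 15 of which lost a call and 12 of which gained one, and of the 76 others 40 changed sign at least once. Where a direction is stated for any of those 76, it describes the values as processed and no conclusion rests on it. The number of members called in the WT step from D7 to D14 (2) was 4 with a pseudocount of 0.1 or 0.5, 1 with no filter, with a filter of TPM at least 5 or under quantile normalization, 6 with library quality weights, and from 0 to 2 with 1 library left out. It was 0 with the filter of TPM at least 5 for the step from D1 to D4 in WT and in KO, where Cd4 then was not tested, and ranged from 1 to 2 in WT (2 without WT D4 replicate 3, which adds Trac) and from 0 to 1 in KO with 1 library left out. With no filter the 1 member called in that KO step was Areg (-0.4, adjusted p = 0.0212). With library quality weights 5 members were called in WT from D4 to D7 and 3 in KO from D7 to D14, and with no filter 4 were called on D1 against control. The causes were not tested. For levels relative to Ptprc averaged over days, a pseudocount of 0.1 turned Cd3e to -0.0127 and Trac to -0.0155 and gave Cd4 -0.66, past the threshold.

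Same-numbered KO and WT libraries correlated from -0.401 to 0.395 over 12 pairs, with 4 over 0.1 and 6 matching best with their own number, so the numbers were not taken as pairs. With the replicate block 0 members were called between genotypes on any day and 3 in the WT step from D7 to D14, where Cd4 was added (adjusted p = 0.0371). TPM carries no depth, which limits the members near or below 1 TPM.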
